A study of Mus musculus with 9 samples.

Results

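The small leucine-rich proteoglycans are secreted matrix proteins, and 10 of their genes were followed here in the front of the newborn mouse eye: Kera, Lum, Dcn, Bgn, Fmod, Ogn, Omd, Aspn, Prelp and Podn. They were taken by name, as the rows whose Ensembl identifier carries one of these symbols in the GRCm38 annotation. The names were chosen with earlier results of these data known. All 10 were found among the 35275 genes of the count table, and all 10 had enough counts to be among the 15825 genes tested. RNA had been sequenced in bulk from P0 anterior segments (postnatal day 0), that is cornea with iris, ciliary body and drainage tissue but without the lens. The 3 wildtype libraries were Col4a1+/+ and the 6 mutant libraries Col4a1+/G1344D, heterozygous for a germline missense allele in a type IV collagen gene. A library was a pool of both eyes of 2 mice (4 eyes), so the p-values below measure the spread between pools, and no other allele or agent is named for either group. Library totals ran from 25995340 to 35306935 counts.

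Proteins of this family have a core of leucine-rich repeats, and most carry keratan sulfate or dermatan sulfate chains. They sit on the surface of collagen fibrils and hold fibril diameter and spacing within narrow limits, and in the cornea that order is needed for transparency. Keratocan, lumican and decorin, the products of Kera, Lum and Dcn, are made by the keratocytes of the corneal stroma, and keratocan is the one most used as a marker of that cell.

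Lower levels of 4 of the 10 genes were measured in the mutant, and no member was called higher. Kera fell the furthest, 1.84-fold, followed by Aspn (1.48-fold), Lum (1.46-fold) and Dcn (1.35-fold). Bgn, of the same class of the family as Dcn, stayed at 1548 against 1555 CPM (counts scaled to a common library size). Ratios between members were tested within libraries, as given below, and the sum of the members was not tested. Of all genes tested, 19.2% were called, 9.47% lower and 9.7% higher, by the same rule (edgeR quasi-likelihood test, Benjamini-Hochberg adjusted p under 0.05 over all 15825 genes). The median log2 fold change was -0.26 over the 10 members and -0.00 over all genes tested, and 7 of the 10 members had a negative value. The count of 4 rests on wildtype 1: without that library 0 members were called lower, 4 had an unadjusted p under 0.05, and 3.33% of all genes were called in either direction.

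Many of these genes are neighbours. In GRCm38, Dcn (chr10:97479609-97518143), Lum (chr10:97565128-97572703) and Kera (chr10:97606879-97613692) follow each other on the plus strand of chromosome 10 (ENSMUSG00000019929, ENSMUSG00000036446 and ENSMUSG00000019932). Aspn (chr13:49544443-49567565), Omd (chr13:49582462-49592822) and Ogn (chr13:49608046-49624501) do so on chromosome 13 (ENSMUSG00000021388, ENSMUSG00000048368 and ENSMUSG00000021390). Prelp (chr1:133910304-133921414, minus strand) and Fmod (chr1:134037254-134048277) lie side by side on chromosome 1, Bgn (chrX:73483602-73495933) is on the X chromosome and Podn (chr4:108014791-108096445, minus strand) on chromosome 4. The 3 members called lower with the highest levels were thus the 3 of chromosome 10, while on chromosome 13 Aspn passed the test and Omd and Ogn did not.

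RefSeq promoter windows on GRCm38.p6 were held for 8 of the 10 members, all but Lum and Dcn. The 250 bases before the start are shown for Aspn, which fell, for its neighbour Ogn, which missed the threshold, and for Bgn, whose level was nearly the same in both groups. Capitals mark the TATA box core TATAAA, the CCAAT box and the GC box GGGCGG, each searched on both strands.
Aspn (chr13:49544193-49544442, plus strand): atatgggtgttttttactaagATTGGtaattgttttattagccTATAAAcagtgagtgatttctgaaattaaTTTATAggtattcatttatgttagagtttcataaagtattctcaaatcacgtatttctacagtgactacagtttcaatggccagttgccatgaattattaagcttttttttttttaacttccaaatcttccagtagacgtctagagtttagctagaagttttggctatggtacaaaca
Ogn (chr13:49607765-49608014, plus strand): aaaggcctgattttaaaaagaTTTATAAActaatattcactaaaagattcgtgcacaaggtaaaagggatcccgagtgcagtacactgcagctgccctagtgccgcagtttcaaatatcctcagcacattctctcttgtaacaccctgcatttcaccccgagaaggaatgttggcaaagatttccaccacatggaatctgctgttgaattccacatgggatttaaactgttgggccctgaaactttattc
Bgn (chrX:73483351-73483600, plus strand): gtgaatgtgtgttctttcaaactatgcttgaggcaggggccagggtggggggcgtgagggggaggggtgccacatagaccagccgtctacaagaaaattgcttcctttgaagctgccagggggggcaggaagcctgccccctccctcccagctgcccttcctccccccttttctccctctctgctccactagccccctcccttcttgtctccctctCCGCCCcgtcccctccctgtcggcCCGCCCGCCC
The Aspn window held 2 matches to TATAAA and 1 to CCAAT, the Ogn window 2 matches to TATAAA that overlap each other, and the Bgn window 3 matches to GGGCGG, of which 2 overlap. Among all 32851 windows of this length, 12.4% held TATAAA, 33.8% CCAAT and 32.7% GGGCGG. The Aspn window had a GC content of 30%, with 1.47% of all windows lower, and the Ogn window one of 42%, with 15.9% lower. Bgn stood on the other side of the median of 52.4%, at 64.4%. The windows of Omd, Fmod and Prelp had GC contents of 38.4%, 51.2% and 55.6%. Podn had 2 entries, and the first (78%, chr4:108031955-108032204) lies inside the span given above for that gene. For Kera the RefSeq window (42.4%) lies inside the gene as GENCODE annotates it, after the start given above, so it is not shown. These matches describe the letters of the windows only.

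Kera encodes keratocan, a keratan sulfate proteoglycan that is largely restricted to the cornea. It stood at 2200.4, 1992 and 1299 CPM in wildtype 1 to 3, and at 712 (lowest), 996 (median) and 1376 (highest) in the 6 mutant libraries. Wildtype 3 lay below mutant 1, so the groups overlap by that 1 pair, and the other 5 mutants lay below all 3 wildtypes. The mean was 1831 ± 472 CPM (SD, n = 3) in wildtype and 995 ± 237 CPM (SD, n = 6) in the mutant. The log2 fold change was -0.88 (SE 0.18, 95% interval -1.27 to -0.49, edgeR adjusted p = 0.00634). In bulk tissue, fewer cells of a type and less RNA per cell cannot be told apart, for Kera and for every gene below.

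Lum encodes lumican, the other main keratan sulfate proteoglycan of the cornea, which is also made in sclera, skin and tendon. Its level was 3425, 3201 and 2483 CPM in wildtype 1 to 3, and 1818 (lowest), 1990.1 (median) and 2526 (highest) in the mutants. As for Kera, wildtype 3 was the lowest wildtype and mutant 1 the highest mutant, and mutant 1 alone reached into the wildtype range. The means were 3036 ± 492 CPM (SD, n = 3) and 2073 ± 262 CPM (SD, n = 6), a log2 fold change of -0.55 (SE 0.12, 95% interval -0.81 to -0.29, edgeR adjusted p = 0.00723).

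Dcn encodes decorin, which carries a dermatan or chondroitin sulfate chain, is made by fibroblasts of most connective tissues and binds TGF-beta. It was measured at 3388, 3322 and 2778 CPM in wildtype 1 to 3, and at 1976 (lowest), 2279 (median) and 2818 (highest) in the mutants. Wildtype 3 and mutant 1 again met at the border between the groups. The means of 3163 ± 335 CPM (SD, n = 3) and 2343 ± 315 CPM (SD, n = 6) gave a log2 fold change of -0.43 (SE 0.12, 95% interval -0.68 to -0.18, edgeR adjusted p = 0.0198).

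Aspn encodes asporin, a relative of decorin and biglycan that has no glycosaminoglycan chain and is known from cartilage and periodontal ligament. It was the member with no overlap between the genotypes: 103, 92.6 and 96.1 CPM in wildtype 1 to 3, and 42.4 (lowest), 69.5 (median) and 80.3 (highest) in the mutants. All 6 mutants thus lay below all 3 wildtypes, which was the case for 11.2% of all genes tested. The means were 97.3 ± 5.40 CPM (SD, n = 3) and 65.7 ± 13.5 CPM (SD, n = 6), a log2 fold change of -0.57 (SE 0.14, 95% interval -0.87 to -0.26, edgeR adjusted p = 0.0134). Mutant 2 was the lowest library for Aspn, whereas mutant 3 was the lowest for Kera.

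The library left out mattered for each of these 4 calls. Without wildtype 1 the log2 fold changes were -0.72 for Kera (edgeR adjusted p = 0.074), -0.45 for Lum (adjusted p = 0.0708), -0.38 for Dcn (adjusted p = 0.116) and -0.52 for Aspn (adjusted p = 0.0945). Dcn also missed the threshold without wildtype 2, at -0.39 (edgeR adjusted p = 0.0692). With a trend on total exon length removed from each library, Aspn was at -0.44 (adjusted p = 0.121, edgeR), while Kera, Lum and Dcn kept their calls. With the trend taken on the length of the principal transcript, Aspn was at -0.50 (adjusted p = 0.0749) and Dcn at -0.30 (adjusted p = 0.116, edgeR). The sign was negative for all 4 genes in every one of these fits.

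**Figure D1:**
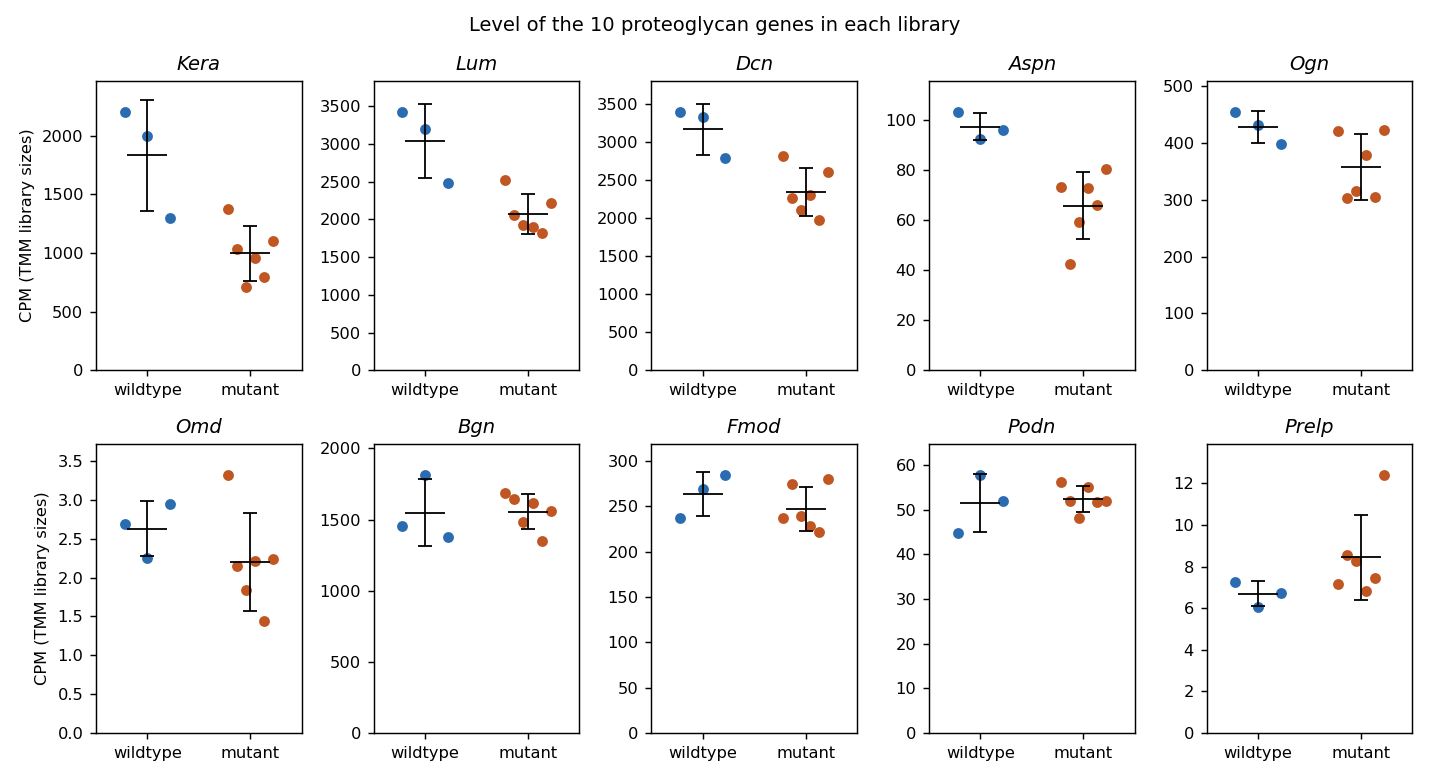
Level of each of the 10 proteoglycan genes in CPM (vertical axis, from 0, a scale of its own for each gene) in 3 wildtype and 6 mutant libraries. Points are libraries, and the bar with its error shows the mean and SD. The mutant points of Kera, Lum and Dcn lie below the wildtype points except for mutant 1, those of Aspn lie below all wildtype points, and those of Bgn, Fmod and Podn overlap the wildtype points.

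The other 6 members did not pass the test. Ogn, which encodes osteoglycin (mimecan), a further keratan sulfate proteoglycan of the cornea, came nearest. Its level was 454, 431 and 399 CPM in wildtype 1 to 3 and 303 (lowest), 347 (median) and 423 (highest) in the mutants. The means were 428 ± 28.1 and 358 ± 57.4 CPM (SD, n = 3 and 6), a log2 fold change of -0.26 (SE 0.11, 95% interval -0.50 to -0.02, edgeR adjusted p = 0.118). Mutants 1 and 6 lay inside the wildtype range and the other 4 below it. By limma-voom with quality weights Ogn was called lower (adjusted p = 0.0320), which made 5 members in that fit, where 29.7% of all genes were called.

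Bgn encodes biglycan, which carries chondroitin or dermatan sulfate chains and shares the decorin fold. It stood at 1452, 1815 and 1377 CPM in wildtype 1 to 3 and at 1347 (lowest), 1585 (median) and 1687 (highest) in the mutants. The groups overlapped over nearly their whole range, and the highest and the second lowest of the 9 values were both wildtype. The log2 fold change was 0.01 with a 95% interval from -0.22 to 0.23 (edgeR adjusted p = 0.973). That interval leaves out the point estimate of -0.43 for Dcn but overlaps the interval of Dcn, -0.68 to -0.18. The sign for Bgn turned with the scaling, to -0.02 with upper-quartile factors and -0.01 with library totals. Whether the 2 genes differed in their change was tested within libraries, as a ratio, below.

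Fmod encodes fibromodulin, a keratan sulfate proteoglycan most abundant in tendon and sclera. Its mean was 264 ± 24.2 CPM (SD, n = 3) in wildtype and 247 ± 24.3 CPM (SD, n = 6) in the mutant, a log2 fold change of -0.09 (95% interval -0.28 to 0.10, edgeR adjusted p = 0.502). Podn encodes podocan, a member of a more distant class, and was at 51.6 ± 6.54 and 52.5 ± 2.88 CPM (log2 fold change 0.03, 95% interval -0.17 to 0.22, edgeR adjusted p = 0.88). The groups overlapped for both genes.

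Prelp and Omd were near the lower limit of what was measured. Prelp encodes a proteoglycan-like protein with a basic end that binds heparan sulfate and was at 6.69 ± 0.596 CPM (SD, n = 3) and 8.44 ± 2.06 CPM (SD, n = 6). Its 4 highest mutants lay above all wildtypes, 1 of them at 12.4 CPM, and the log2 fold change was 0.33 (95% interval -0.07 to 0.74, edgeR adjusted p = 0.23). Omd encodes osteomodulin, known from bone, and had between 51 and 96 counts per library, 2.63 ± 0.353 and 2.20 ± 0.630 CPM. Its log2 fold change of -0.26 had a 95% interval from -0.82 to 0.30 (edgeR adjusted p = 0.53). That interval holds both 0 and the -0.57 of Aspn, so a change of that size is not excluded.

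Levels of different genes can be compared only per length of transcript. As FPKM (CPM per kilobase, here of the principal transcript), the order in wildtype was Dcn at 1799 ± 190 (SD, n = 3), Lum at 1240 ± 201, Kera at 803 ± 207, Bgn at 640 ± 96.9, Ogn at 167 ± 10.9, Fmod at 84.5 ± 7.74, Aspn at 41.8 ± 2.32, Podn at 16.3 ± 2.06, Prelp at 1.85 ± 0.165 and Omd at 1.17 ± 0.157. The ranges of mean and SD of Kera and Bgn, neighbours in this order, overlap, and those of the other neighbours do not. In the mutant, Dcn stood at 1333 ± 179 FPKM (SD, n = 6), Lum at 847 ± 107, Bgn at 643 ± 51.4 and Kera at 437 ± 104, so Bgn stood ahead of Kera there. Over total exon length, which is 5838 bases in Dcn against 1758 in its principal transcript, Dcn had 542 ± 57.3 FPKM in wildtype and Lum and Kera stood ahead of it. On that scale Lum was the 21st and Kera the 35th of all genes tested in wildtype, and the 27th and 65th in the mutant.

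The 10 members together took 1.05% ± 0.120 of all counts in wildtype (SD, n = 3, range 0.914% to 1.15%) and 0.766% ± 0.0860 in the mutant (SD, n = 6, range 0.674% to 0.903%), so the highest mutant lay just below the lowest wildtype. These are shares of raw totals, which hold the Gm42418 counts given below. As summed CPM the members ran from 8778 to 11315 in wildtype and from 6587 to 9206 in the mutant, so on that scale the groups overlapped. Kera, Lum and Dcn made up most of it, 0.806% ± 0.107 against 0.538% ± 0.0728. Of the counts on the members, Kera held 17.4% ± 2.36 in wildtype and 12.8% ± 1.55 in the mutant, and Bgn 14.9% ± 1.82 and 20.3% ± 1.45. Dcn held 30.4% in both groups.

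A ratio of 2 members within a library does not depend on the scaling between libraries, and 10 such ratios were tested by exact two-sided permutation over all 84 splits into 3 and 6, where the smallest p that can be reached is 0.0119. The ratio of Bgn to Dcn counts was 0.428, 0.546 and 0.496 in wildtype 1 to 3 and 0.599, 0.729, 0.706, 0.701, 0.682 and 0.598 in mutants 1 to 6. All 6 mutants lay above all 3 wildtypes. The difference of the mean log2 ratios, mutant minus wildtype, was 0.45 (exact permutation p = 0.0119, Benjamini-Hochberg adjusted p = 0.0397 over the 10 ratios). Podn to Dcn (0.47) and Prelp to Dcn (0.75) were also higher in 6 of 6 mutants, with the same p-values by the same exact test. With 1 library less the smallest p is larger, and each of these 3 ratios then missed the threshold in 8 of 9 cases. For Bgn to Dcn the difference ran from 0.36 (without wildtype 1, exact permutation test, adjusted p = 0.119) to 0.53 (without wildtype 2, adjusted p = 0.119), for Podn to Dcn from 0.32 to 0.57 and for Prelp to Dcn from 0.64 to 0.84.

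The ratio of Kera to Dcn ran from 0.468 to 0.649 in wildtype and from 0.339 to 0.488 in the mutant, with a log2 difference of -0.44 that missed the threshold after adjustment (exact permutation p = 0.0238, adjusted p = 0.0595). Kera to Lum differed by -0.33 (exact permutation p = 0.0595, adjusted p = 0.085). Without mutant 1 both passed, at -0.48 and -0.37 (exact permutation test, adjusted p = 0.0357 each). Lum to Dcn differed by -0.11 (exact permutation p = 0.107, adjusted p = 0.134), Fmod to Dcn by 0.34 (adjusted p = 0.085), Ogn to Dcn by 0.17 (adjusted p = 0.085), Omd to Dcn by 0.14 (adjusted p = 0.5) and Aspn to Dcn by -0.16 (adjusted p = 0.5, all by the same exact test). Among the 10 ratios, then, the 3 that passed were those of members whose own level was not called, set against Dcn.

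**Figure D2:**
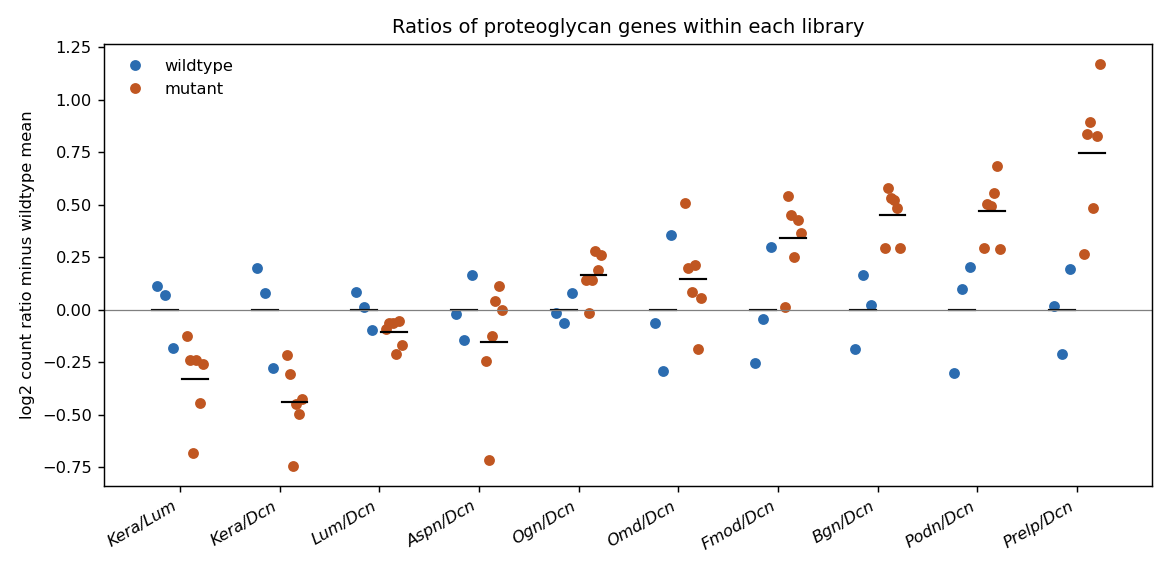
Log2 ratio of the counts of 2 members within each library, shown as the difference from the wildtype mean of that ratio (vertical axis), for 10 ratios and 3 wildtype and 6 mutant libraries (points). All mutant points lie above all wildtype points for Bgn, Podn and Prelp over Dcn, while those of Kera over Dcn lie lower and overlap the wildtype points.

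Kera, Lum and Dcn moved together from library to library. Over the 9 libraries Pearson's r of log2 CPM was 0.98 for Kera with Lum, 0.97 for Kera with Dcn and 0.97 for Lum with Dcn, and 0.93 for each pair once the mean of each genotype was taken away. Dcn with Ogn gave 0.90 (0.88 with the genotype means taken away) and Ogn with Aspn 0.85 (0.76). Kera gave 0.35 with Bgn (0.64), 0.02 with Podn (0.22) and -0.36 with Prelp (0.10). Over the 6 mutant libraries alone, Kera gave 0.78 with Bgn and 0.79 with Podn. These values describe 9 libraries that share their scaling, and no p is given. Among 9950 genes with a mean of at least 10 CPM, those outside the family whose profile was most like that of Kera included Ryk (r = 0.98, Spearman's rho = 1), a receptor for Wnt ligands, Chst10 (r = 0.98), a sulfotransferase of the HNK-1 epitope, Crabp1 (r = 0.97), which binds retinoic acid, and Vcam1 (r = 0.97), an adhesion molecule. They were picked for this likeness. Chst10, Crabp1 and Vcam1 were called lower, with log2 fold changes of -0.50, -1.16 and -0.33 (edgeR adjusted p = 0.0345, 0.0232 and 0.0218), and Ryk, at -0.17, was not (edgeR adjusted p = 0.114). Lum and Dcn, as family genes, came 5th and 6th in the same order, in which Kera itself is the first.

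The libraries also differed in ways the genotype label does not give, and these values stand beside the 4 calls. Gm42418, a locus that takes up ribosomal RNA reads, held 4.11% to 6.91% of counts in wildtype 1 and mutants 1, 3, 4, 5 and 6, and 0.0663% to 0.0708% in wildtypes 2 and 3 and mutant 2. Within the low group (2 wildtype, 1 mutant) the log2 ratio of mutant to wildtype was -0.64 for Kera, -0.45 for Lum, -0.43 for Dcn and -1.15 for Aspn. Within the high group (1 wildtype, 5 mutants) it was -1.20, -0.73, -0.53 and -0.56. With the split as a covariate all 4 genes passed, with Kera at -0.94 (edgeR adjusted p = 0.0132) and Dcn at -0.48 (adjusted p = 0.0345). For Bgn the 2 values were 0.06 and 0.08, and for Prelp 0.42 and 0.18.

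**Figure D3:**
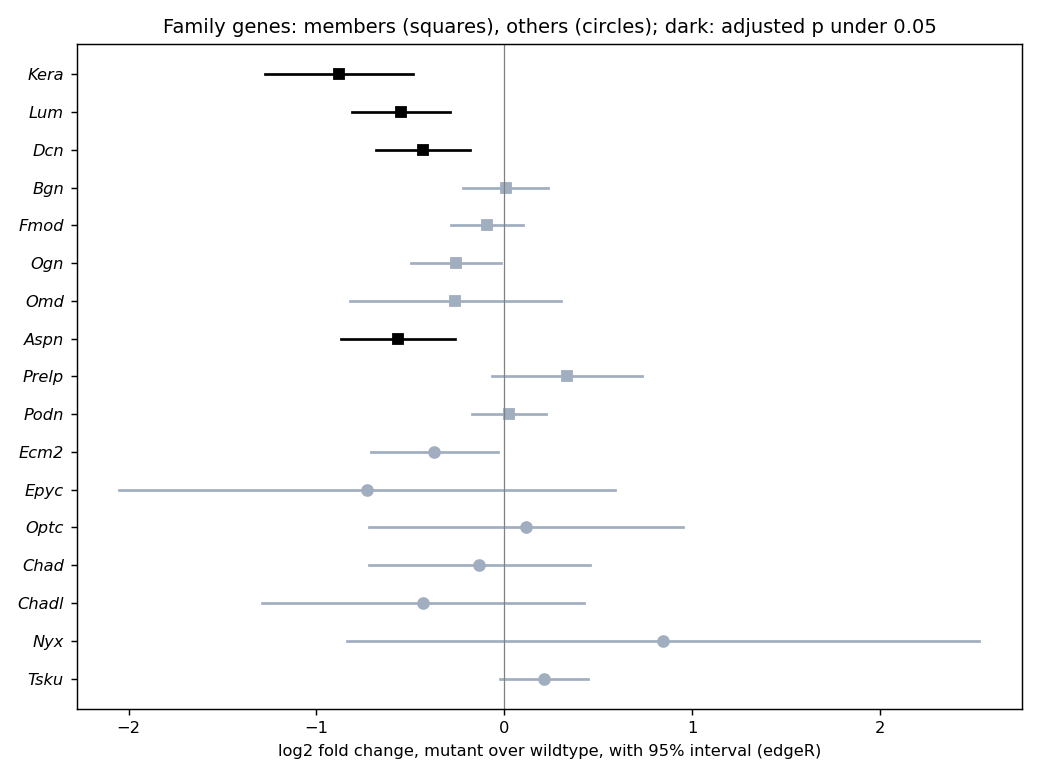
Log2 fold change, mutant over wildtype, with its 95% interval (horizontal axis, edgeR) for the 10 members (squares) and the other tested genes of the family (circles), where dark marks an adjusted p under 0.05. Kera, Aspn, Lum and Dcn lie to the left of 0 with intervals that leave it out, and Bgn and Podn sit near 0.

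A further 8 genes of the family outside the 10 members were listed, and 7 had enough counts to test. None was called by edgeR in either direction (1 had an unadjusted p under 0.05, a lower one), and none by DESeq2, while limma-voom called 2 lower and 1 higher. Ecm2, which lies beside Aspn on chromosome 13, was at 17.6 ± 0.746 CPM in wildtype and 13.6 ± 2.92 CPM in the mutant (log2 fold change -0.37, edgeR adjusted p = 0.11). Tsku, a secreted inhibitor of Wnt and BMP signals, was at 43.3 ± 2.57 and 50.1 ± 6.57 CPM (log2 fold change 0.21, edgeR adjusted p = 0.195). Optc (2.96 and 3.20 CPM), Chadl (2.67 and 1.99), Chad (1.90 and 1.73), Epyc, the neighbour of Kera (0.449 and 0.269), Nyx (0.218 and 0.397) and the untested Podnl1 (0.283 and 0.194) were low in both groups.

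Keratan sulfate, the chain on keratocan, lumican, osteoglycin and fibromodulin, is built by a small set of enzymes. Of 9 listed, 3 were lower, 1 was higher and 5 did not pass, and the list's median log2 fold change was -0.01. Over all genes tested the shares were 9.47% lower and 9.7% higher, here and for each list below. B3gnt7, which adds N-acetylglucosamine to the growing chain, fell from 27.4 ± 6.20 to 17.1 ± 2.31 CPM (log2 -0.68, edgeR adjusted p = 0.00526), with all 6 mutants below all wildtypes. Chst5, which sulfates that sugar in the cornea, fell from 60.5 ± 4.61 to 40.5 ± 8.35 CPM (log2 -0.58, edgeR adjusted p = 0.0115). B4galt4, the galactosyltransferase of the chain, fell from 41.9 ± 4.25 to 33.0 ± 3.36 CPM (log2 -0.34, edgeR adjusted p = 0.0291). B4galt1, which serves many glycans, rose from 116 ± 3.97 to 146 ± 6.79 CPM (log2 0.32, edgeR adjusted p = 0.00645). Chst1, the galactose sulfotransferase, was at log2 0.26 (adjusted p = 0.166) and B3gnt2 at 0.431 and 0.295 CPM. The groups did not overlap for any of the 4 genes that passed, but without wildtype 1 the adjusted p was 0.0603 for Chst5, 0.195 for B4galt4 and 0.0544 for B4galt1 (edgeR). B4galt4 also missed the threshold without wildtype 2 (adjusted p = 0.0604), mutant 3 (0.0618) or mutant 5 (0.0502). It lost its call in 6 of 13 processing alternatives too (other scalings, filters, tools, length trends, block or covariate, described below), at log2 -0.37 to -0.28. Chst1 gained a call, as higher, in 1 of the 13.

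For the chains of decorin and biglycan, 21 tested genes of chondroitin and dermatan sulfate synthesis gave 3 lower and 1 higher. The share over all genes tested was 9.47% lower and 9.7% higher, and the list's median log2 fold change was 0.05. B3gat3, which completes the linker on which all such chains start, fell from 56.0 ± 2.16 to 39.4 ± 4.76 CPM (log2 -0.51, edgeR adjusted p = 0.00491). B3galt6, an earlier step of the same linker, fell from 27.4 ± 3.48 to 20.0 ± 2.95 CPM (log2 -0.45, edgeR adjusted p = 0.0228), and Chpf, a polymerizing factor, from 209 ± 13.2 to 166 ± 17.9 CPM (log2 -0.33, edgeR adjusted p = 0.0185). Chst15, a sulfotransferase, rose from 38.1 ± 5.96 to 54.4 ± 7.11 CPM (log2 0.51, edgeR adjusted p = 0.0102). Chsy3 (adjusted p = 0.097) and Chst3 (adjusted p = 0.117) came next. Without wildtype 1 the adjusted p was 0.177 for B3galt6, 0.0936 for Chpf and 0.0928 for Chst15 (edgeR), Chpf missed without wildtype 2 (0.0727) and Chst15 without wildtype 3 (0.0514). The call of B3gat3 was kept whichever library was left out.

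Sulfate and sugar donors are needed by all of these chains. Among 9 genes of their supply 1 was lower and 1 higher, with a median of 0.01, beside 9.47% lower and 9.7% higher over all genes tested. Slc35b2, which carries the activated sulfate donor into the Golgi, fell from 202 ± 25.0 to 135 ± 6.24 CPM (log2 -0.58, edgeR adjusted p = 0.000534). All 6 mutants lay below all wildtypes, and the call was kept with each library left out. Slc26a2, a sulfate transporter of the cell surface, rose from 18.4 ± 3.65 to 26.1 ± 2.14 CPM (log2 0.50, edgeR adjusted p = 0.0126, 0.107 without wildtype 1 and 0.0579 without wildtype 3). In 5 of the 13 processing alternatives Slc26a2 lost its call, with log2 fold changes from 0.23 to 0.53 over all 13. Slc35d1, a nucleotide sugar carrier (adjusted p = 0.0543), and Papss1, which makes the sulfate donor (0.0792), did not pass. Under the 13 processing alternatives Slc35d1 was called higher in 3 and Papss1 lower in 1.

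The collagens that these proteoglycans bind were counted in 2 lists, beside shares of 9.47% lower and 9.7% higher over all genes tested. Of 11 genes of fibrillar collagens 2 were lower and 0 higher (edgeR, with 1 higher at an unadjusted p under 0.05, and 0 higher by DESeq2 and by limma-voom), with a median log2 fold change of -0.02. Those 2 were Col27a1, from 27.6 ± 2.61 to 16.9 ± 4.01 CPM (log2 -0.71, edgeR adjusted p = 0.00872), and Col24a1, from 44.9 ± 5.05 to 31.7 ± 5.48 CPM (log2 -0.50, edgeR adjusted p = 0.0141), both minor chains. Col5a3 (adjusted p = 0.0941) and Col5a2 (adjusted p = 0.489) were next. Without wildtype 1 the adjusted p was 0.0544 for Col27a1 and 0.0766 for Col24a1 (edgeR), and without wildtype 2 it was 0.0637 for Col24a1. Among 11 collagens of the fibril surface and of microfibrils, Col12a1 rose from 585 ± 73.7 to 921 ± 209.98 CPM (log2 0.65, edgeR adjusted p = 0.0109, 0.0963 without wildtype 1). Col9a1 fell from 197 ± 14.7 to 132 ± 34.1 CPM (log2 -0.58, edgeR adjusted p = 0.0325), and missed the threshold without wildtype 1 (0.164), wildtype 2 (0.093), wildtype 3 (0.0529) or mutant 5 (0.0502). The other 9 did not pass, with Col6a3 (adjusted p = 0.0654) and Col16a1 (0.134) nearest, and the median was -0.07. Under the 13 processing alternatives Col6a3 was called higher in 4 and Col16a1 lower in 3.

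Proteases that process or cleave the family, with their inhibitors, gave 4 higher and 0 lower of 13 tested (edgeR, with 1 lower at an unadjusted p under 0.05, 0 lower by DESeq2 and 1 by limma-voom), with a median log2 fold change of 0.17. Shares over all genes tested were 9.7% higher and 9.47% lower. Timp3, an inhibitor bound to matrix, rose from 264 ± 18.2 to 369 ± 28.95 CPM (log2 0.48, edgeR adjusted p = 0.00233). Adamts4 rose from 7.57 ± 1.81 to 12.3 ± 0.947 CPM (log2 0.70, edgeR adjusted p = 0.00836) and Adamts5 from 28.3 ± 4.13 to 35.8 ± 2.84 CPM (log2 0.34, edgeR adjusted p = 0.039), both of them proteoglycan-cleaving enzymes. Mmp9, a gelatinase, rose from 1.67 ± 0.125 to 3.40 ± 1.57 CPM (log2 1.02, edgeR adjusted p = 0.0476). Timp1 (adjusted p = 0.115) and Pcolce (0.278) did not pass, though Timp1 was called lower in 2 of the 13 processing alternatives. Adamts5 missed the threshold without wildtype 1 (0.250) or 3 (0.0769) or mutant 1, 3 or 6 (0.0541 to 0.0731). Mmp9 missed it without any 1 wildtype (0.097 to 0.183) or without mutant 1, 5 or 6 (0.0696 to 0.0867), while Timp3 and Adamts4 kept their calls throughout. Under the processing alternatives Adamts5 lost its call in 8 of 13, with log2 fold changes from 0.04 to 0.40. Mmp9 lost its call in 8 of 12, at 0.75 to 1.06.

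Of 22 ligands and receptors that bind members of the family, 8 were higher and 0 lower, with a median log2 fold change of 0.29 (edgeR, with 0 lower at an unadjusted p under 0.05, and 0 lower by DESeq2 and by limma-voom). Shares over all genes tested were 9.7% higher and 9.47% lower. The list includes the complement genes C1qa, C1qb and C1qc, of which C1qa and C1qb also stand in the macrophage list below. Lrp1, an endocytic receptor that takes up decorin, rose from 250 ± 33.0 to 426 ± 88.97 CPM (log2 0.77, edgeR adjusted p = 0.0035), and Ccn2, a matricellular growth factor, from 74.4 ± 7.89 to 128 ± 26.8 CPM (log2 0.78, edgeR adjusted p = 0.00382). Tgfb2, the ligand that decorin and biglycan can hold, rose from 152 ± 12.6 to 189 ± 8.71 CPM (log2 0.32, edgeR adjusted p = 0.0096), and Tgfb1 from 38.1 ± 4.98 to 48.4 ± 3.41 CPM (log2 0.34, edgeR adjusted p = 0.0246). Of the receptors, Kdr rose by log2 0.59, Met by 0.46, Igf1r by 0.52 and Cd44 by 0.29 (edgeR adjusted p = 0.00462, 0.00505, 0.00966 and 0.017). Without wildtype 1 the count fell from 8 to 2, Lrp1 and Ccn2, where 3.33% of all genes were called in either direction. The adjusted p in that fit was 0.05003 for Kdr, 0.0544 for Met, 0.0874 for Tgfb2, 0.083 for Igf1r, 0.0986 for Cd44 and 0.16 for Tgfb1 (edgeR). Cd44 also missed the threshold without wildtype 2 (0.0516), Igf1r without wildtype 3 (0.0512), and Tgfb1 without wildtype 3 (0.112) or mutant 3 (0.0552). Under the 13 processing alternatives the call was lost in 6 for Cd44 (log2 0.08 to 0.30), 4 for Tgfb1 and 3 for Igf1r. C1qc and Egfr were not called in the main fit. Under the same 13, C1qc was called higher in 8 (log2 0.33 to 0.64 over all 13) and Egfr in 1 (log2 0.06 to 0.38). Kdr also marks vascular endothelium, whose marker genes are given below.

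**Figure D4:**
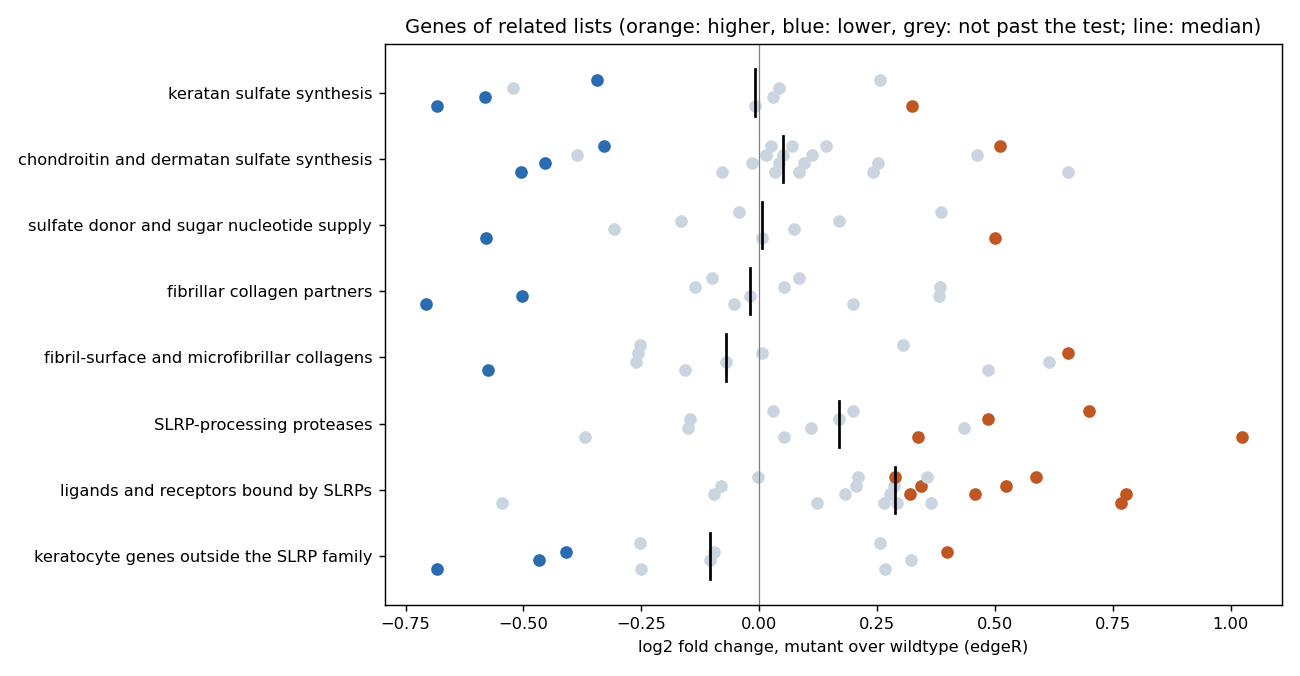
Log2 fold change, mutant over wildtype (horizontal axis, edgeR), of each tested gene (points) in the lists related to the proteoglycans, with the list's median as a line; orange is higher, blue lower and grey not past the test. The ligands and receptors have 8 orange and 0 blue points, whereas keratan sulfate synthesis has 3 blue and 1 orange. Over all genes tested, 9.7% were called higher and 9.47% lower.

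Kera, Lum and Dcn were also set beside 11 tested genes known from keratocytes but outside the family. Of these 3 were lower and 1 higher, with a median of -0.10, beside 9.47% lower and 9.7% higher over all genes tested. Tkt, a metabolic enzyme and corneal crystallin, fell from 1108 ± 73.3 to 834 ± 47.7 CPM (log2 -0.41, edgeR adjusted p = 0.00471), B3gnt7 fell as given above, and Aldh3a1, a crystallin that the corneal epithelium expresses too, fell from 191 ± 24.1 to 138 ± 25.7 CPM (log2 -0.47, edgeR adjusted p = 0.023). Slc4a4, a bicarbonate transporter, rose from 139 ± 4.996 to 183 ± 27.98 CPM (log2 0.40, edgeR adjusted p = 0.0212). Dkk2 (adjusted p = 0.0535) and Ptgds (0.143) did not pass. Aldh3a1 missed the threshold without wildtype 1 (0.129), wildtype 2 (0.0957) or mutant 4 (0.0621), and Slc4a4 without wildtype 1 (0.119) or 3 (0.0577), while Tkt and B3gnt7 kept their calls. Under the 13 processing alternatives the call was lost in 6 for Slc4a4 (log2 0.09 to 0.41) and 3 for Aldh3a1. In the other direction, Dkk2 was called lower in 9 of the 13 (log2 -0.33 to -0.22 over all 13) and Ptgds in 1. Dkk2 also passed without mutant 4 (edgeR adjusted p = 0.0373) or mutant 6 (0.0269).

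Marker genes of the other cells in the dissection were summed in each library to stand beside the 4 members that fell. Their counts of called genes stand beside 9.47% lower and 9.7% higher over all genes tested. The corneal epithelium list ran from 7907 to 8897 CPM in wildtype and from 7628 to 8889 in the mutant (1 of 10 genes higher, 0 lower), and the corneal endothelium list from 3028 to 3139 and from 2868 to 3430.5 (3 higher and 1 lower of 7). Cartilage, tendon and bone genes, of tissues in which Aspn, Fmod and Omd are known, ran from 446 to 580 and from 318 to 525 CPM (2 of 11 lower, 0 higher), with Ibsp and Bglap, which define bone, under 0.5 CPM in every library. Fibroblast genes ran from 513 to 575 and from 554 to 717 CPM (2 higher and 1 lower of 8).

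In 6 of the other 8 lists the summed levels of the genotypes did not overlap, neural retina and skeletal muscle being the exceptions. Vascular endothelium ran from 401 to 499 CPM in wildtype and from 586 to 713 in the mutant (7 of 8 higher), macrophage genes from 221 to 235 and from 332 to 469 (3 of 8 higher), and erythroid genes from 534 to 951 and from 1798 to 8790 (4 of 8 higher). Smooth muscle and pericyte genes ran from 1209 to 1323 and from 955 to 1087 CPM (2 higher and 4 lower of 8). Lens genes ran from 256 to 261 and from 209 to 233 CPM (1 of 6 lower), with Crybb2 and Lim2 at 0 in all libraries, neural retina genes from 385 to 468 and from 333 to 385 (1 of 5 lower), with Rcvrn at 0, and pigment cell genes from 15592 to 16282 and from 13861 to 15524 (0 of 7 called, Rpe65 at 0). Skeletal muscle genes summed to at most 8.49 CPM in any library (0 of 7 called). The part of any of these cell types in the values of the proteoglycan genes was not tested.

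Reads could be shared between overlapping genes, since it is not stated whether the counting used strand. Aspn, Omd and Ogn lie within the span of Cenpp on the other strand, but Cenpp exons overlap those of Aspn by only 7 bases and its level was 5.60 and 4.84 CPM. Prelp overlaps Gm15851 by 350 bases, and that gene had 0 counts in all libraries. Exons of Kera, Lum, Dcn, Bgn, Fmod, Ogn, Omd and Podn overlap those of no other gene in the annotation.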

How the data were processed

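The deposited values were whole-number read counts per Ensembl gene, with no normalization, in 1 column per library, and every column had its sample (0 without one). The build GRCm38 (mm10) and the tools DESeq2 1.6.3, HTSeq 0.6.1 and STAR 2.6.1 are listed, per the submitters' processing notes, but not what each was used for. Which annotation release and strand setting served the counting is not given in the sources used. Symbols and exon lengths came from GENCODE release 21 of the mouse annotation on GRCm38 (34490 of 35275 identifiers matched), and promoter windows from RefSeq. No 2 libraries of the same genotype agreed within sampling noise, and pairs of unlike genotype were not compared.

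Genotype was the single term of an edgeR 4.0.16 (R 4.3.3) fit with TMM factors, the default filter by group and a robust quasi-likelihood test, adjusted over all genes tested at 0.05. CPM used TMM library sizes. Ratios had a prior count of 0.5. Library totals limit precision only for genes of few counts. Alternatives were other scalings and filters, DESeq2 1.42.0, limma-voom (limma 3.58.1), length trends (mgcv 1.9.3), a replicate block, a ribosomal RNA covariate split at 1% of counts on Gm42418, and leaving out each library. Only the main edgeR fit was run on simulated counts, which were drawn without the Gm42418 split. The alternatives and the ratio tests were not run on simulated counts.

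Members, lists and tests were chosen with earlier results of these data known. The text names all members, the other family genes with any count, in each related list every gene called (the 6 of lowest p where more were) and up to 2 more of lowest p, and the 5 genes most like Kera, of which 1 is not reported here. Of 12 marker lists all are given.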

Additional observations from a re-analysis of the deposited data

Results flagged for a closer look

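Among the members, Prelp in mutant 6 stood apart at 12.4 CPM, where the other 5 mutants lay between 6.81 and 8.54 CPM. On the log2 scale, on which the check was run, that gap took up 0.627 of the group's range. Of the other family genes, Tsku in mutant 4 stood apart at 38.2 CPM, where the others lay between 49.6 and 56.8 CPM, a gap of 0.658 of the range in log2. These 2 cases came from 27 groups of 6 mutant libraries checked, and chance alone gives about 1 in 20.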

How the results depend on the processing

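No called result changed direction under any alternative run. Of the uncalled members, Bgn (-0.08 with the exon length trend removed), Podn (-0.01 by limma-voom) and Fmod (0.01 with the ribosomal RNA covariate) took the other sign under some, as did the ratio of Omd to Dcn without wildtype 2 (-0.00). Over 52 related genes and 1130 alternative values, 115 lost a call, 58 gained one and 9 uncalled values had the other sign. Under the other scalings, the other filters, DESeq2 and the ribosomal RNA covariate, 4 members were called lower, where 11.9% to 27.1% of all genes were called in either direction. The count was 2 at a threshold of 0.01, 2 with the principal transcript length trend removed, 1 over the same 6 libraries without the block and 0 to 4 with 1 library left out. Of all genes, 6.52%, 9.87%, 10.3% and 3.33% to 20.8% were called in these fits, against 19.2% in the main fit. Log2 fold changes with 1 library left out ran from -1.07 to -0.72 for Kera, -0.67 to -0.45 for Lum, -0.52 to -0.38 for Dcn and -0.63 to -0.47 for Aspn. Aspn was at -0.44 (edgeR adjusted p = 0.121) with the exon length trend removed and -0.50 with that of the principal transcript, and Dcn at -0.30 with the latter. Ogn was at -0.29 by limma-voom. The cause was not tested. In the related lists, 9 genes were higher and 5 lower at 0.01, against 17 and 12 at 0.05, with 6 lower under the ribosomal RNA covariate. With 1 library left out the counts ran from 4 to 21 and from 4 to 14. The ratios then ran from 0.36 to 0.53 (Bgn to Dcn), 0.32 to 0.57 (Podn to Dcn), 0.64 to 0.84 (Prelp to Dcn), -0.58 to -0.34 (Kera to Dcn) and -0.42 to -0.26 (Kera to Lum).

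Wildtype and mutant replicates 1 to 3 carry the same numbers, and the labels do not say whether these mark anything shared. Their same-number deviations correlated at 0.14, -0.00 and -0.13, too few values to tell whether the libraries are paired. With the replicate block over these 6 libraries 4 members were lower (Kera -0.83, Lum -0.48, Dcn -0.40, Aspn -0.77), also with the length trend removed. Of all genes, 9.33% were called with the block and 6.34% with the length trend removed as well. Without the block over the same 6 libraries, an alternative added after seeing the data like the principal transcript trend, Kera was at -0.81, Lum at -0.48 and Dcn at -0.40 (edgeR adjusted p = 0.0722, 0.0543 and 0.0811). Few counts limit Omd, Epyc, Nyx and Podnl1.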
